A study of Mus musculus with 20 samples.

Results

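The genes described here are 32 members of the acute phase response and of the IL-6 and IL-1 signalling that controls it, chosen by name, and all 32 were found among 40322 distinct gene symbols in the count table. They comprise the serum amyloid A genes Saa1, Saa2, Saa3 and Saa4, the orosomucoid genes Orm1, Orm2 and Orm3, Lcn2, Hp, Hpx, Cp, the pentraxin genes Crp and Apcs, Lbp, the fibrinogen chain genes Fga, Fgb and Fgg, the inter-alpha-trypsin inhibitor heavy chain genes Itih1, Itih2, Itih3 and Itih4, the protease inhibitor genes Serpina3k, Serpina3m, Serpina3n and A2m, and the signalling genes Il6ra, Il6st, Stat3, Socs3, Il1r1, Il1rn and Steap4. Libraries of total RNA, depleted of ribosomal RNA, came from liver and subcutaneous white adipose tissue (SAT) of C57BL/6J males. The mice ate regular chow until surgery at 8 to 9 months of age, when the abdomen was opened and the epididymal visceral adipose tissue was taken out (VAT removal, VATR) or was left in place (sham). All mice, sham included, were fed a high-fat diet afterwards, and no group on chow after surgery and no group without surgery is used here. The series compared what VAT removal changed in liver and SAT, with 5 libraries in each of 4 groups, called sham liver, VATR liver, sham SAT and VATR SAT.

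The acute phase response is the change in plasma proteins made by the liver during infection, injury or inflammation. IL-6 binds its receptor Il6ra together with the shared receptor chain gp130 (Il6st), the kinases bound to gp130 activate the transcription factor STAT3, and STAT3 switches on type II acute phase genes such as the fibrinogen chains and also Socs3, which inhibits the same receptor. IL-1 and TNF act through NF-kappaB and C/EBP factors on type I genes such as the serum amyloids and orosomucoids, and adipose tissue is known to make several of these proteins as well, among them serum amyloid A3, haptoglobin, lipocalin-2 and orosomucoid-1.

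The libraries held 20307159 to 43618452 counts assigned to genes, so for well expressed members the spread between libraries, and not counting, set the precision. Levels are given as CPM, counts relative to the library total after TMM scaling, which adjusts for differences in the make-up of the libraries, and differences are log2 values from the edgeR fits with their standard errors (SE). Hepatocyte and fat cell genes were at the levels of the labelled tissues: albumin (Alb) in sham SAT was at 0.0186% of its level in sham liver and transthyretin (Ttr) was covered by 2 counts in all 5 sham SAT libraries. Adiponectin (Adipoq), which marks fat cells, was at 817 to 1956 CPM in sham SAT, 1349.8 to 1771 CPM in VATR SAT and at most 0.421 CPM in liver. Sham SAT libraries 3 and 4 stood apart, with summed levels of 6 fat cell genes of 5862 and 5082 CPM, against 7549.5 to 10637 CPM in the other 8 SAT libraries, and of 8 B- and T-cell genes of 458 and 467 CPM, against 6.72 to 11.6 CPM. Differences of the members between VATR and sham SAT are therefore given with and without these libraries. Those between the sham tissues are given both ways for Orm2, Orm3, Serpina3n and Lbp only. The part of these libraries in the results was not tested otherwise. In liver, VATR library 1 had the highest summed level of 5 Kupffer cell genes (618 CPM, against 124 to 314 CPM in the other 9 libraries), and sham library 5 had the highest level of 6 interferon-induced genes (1079 CPM, against 84.7 to 215 CPM). In such bulk tissue, fewer cells of a type and less RNA per cell cannot be told apart. The sources used here do not say whether a mouse gave more than one library, so p-values measure the spread between these libraries.

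The stretches before the start sites of 7 members are shown because the account of liver turns largely on the fibrinogen chains, Itih4 and Apcs, and because Saa1 and Saa2 are near copies. Itih2, also described in detail, is not shown, since its RefSeq window lies inside the gene in GENCODE. The sequences are from RefSeq (GRCm38.p6), which gave an entry for 26 of the 32 members and none for Orm1, Hp, Serpina3m, Serpina3k, Lbp and A2m. They are written 5′ to 3′ on the strand of the gene, and stop before the annotated start of both RefSeq and GENCODE, whichever comes first. GENCODE starts Fga and Saa2 further upstream than RefSeq does, so 173 and 207 bases of their 250-base windows are shown, and it starts Apcs further downstream. Positions are counted from the RefSeq start. Capitals mark matches to CTGGGAA, the core of the type II IL-6 response element (TTCCCAG on the other strand), to the STAT palindrome TTCNNNGAA, and to the C/EBP core TTGCNNAA, each on either strand.
Fgg (chr3:83007474-83007723, plus strand): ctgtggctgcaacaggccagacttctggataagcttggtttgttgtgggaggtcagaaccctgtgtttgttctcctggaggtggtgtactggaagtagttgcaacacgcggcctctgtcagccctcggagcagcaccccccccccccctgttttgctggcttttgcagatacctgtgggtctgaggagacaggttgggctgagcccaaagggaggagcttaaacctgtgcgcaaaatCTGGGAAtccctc
Fga (chr3:83025903-83026075, plus strand): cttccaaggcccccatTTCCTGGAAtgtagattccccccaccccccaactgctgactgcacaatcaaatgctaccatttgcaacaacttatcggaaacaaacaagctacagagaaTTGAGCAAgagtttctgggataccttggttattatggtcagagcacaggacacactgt
Fgb (chr3:83049864-83050113, minus strand): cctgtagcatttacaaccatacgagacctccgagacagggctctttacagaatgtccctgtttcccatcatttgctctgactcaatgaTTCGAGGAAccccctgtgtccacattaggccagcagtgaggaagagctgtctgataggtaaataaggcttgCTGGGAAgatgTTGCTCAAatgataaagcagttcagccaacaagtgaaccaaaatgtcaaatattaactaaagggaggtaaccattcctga
Itih4 (chr14:30886226-30886475, plus strand): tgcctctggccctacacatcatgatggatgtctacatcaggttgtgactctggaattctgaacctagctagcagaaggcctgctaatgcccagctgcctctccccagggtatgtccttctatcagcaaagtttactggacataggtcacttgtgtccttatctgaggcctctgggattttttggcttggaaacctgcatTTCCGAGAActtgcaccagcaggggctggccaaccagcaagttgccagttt
Apcs (chr1:172895055-172895304, minus strand): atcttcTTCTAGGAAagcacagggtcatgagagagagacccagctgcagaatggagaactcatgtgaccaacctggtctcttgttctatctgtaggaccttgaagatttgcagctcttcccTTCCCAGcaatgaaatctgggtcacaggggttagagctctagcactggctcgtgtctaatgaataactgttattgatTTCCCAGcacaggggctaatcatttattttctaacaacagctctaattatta
Saa1 (chr7:46742981-46743230, minus strand): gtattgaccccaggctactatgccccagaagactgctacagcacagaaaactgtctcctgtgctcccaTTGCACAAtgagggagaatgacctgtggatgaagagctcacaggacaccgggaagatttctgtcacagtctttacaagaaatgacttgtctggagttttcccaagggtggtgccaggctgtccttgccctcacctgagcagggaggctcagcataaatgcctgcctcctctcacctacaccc
Saa2 (chr7:46751583-46751789, plus strand): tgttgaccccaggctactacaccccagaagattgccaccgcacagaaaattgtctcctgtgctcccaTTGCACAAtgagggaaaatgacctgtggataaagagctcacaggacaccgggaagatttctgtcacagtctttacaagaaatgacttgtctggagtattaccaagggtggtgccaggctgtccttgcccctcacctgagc

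Fgg, Fga and Fgb lie side by side on chromosome 3 and encode the gamma, alpha and beta chains of fibrinogen, the precursor of the clot. Together these 3 windows held 2 copies of CTGGGAA, 2 copies of TTCNNNGAA and 2 copies of TTGCNNAA. The Apcs window held 2 copies of CTGGGAA and 1 of TTCNNNGAA, and the Itih4 window 1 of TTCNNNGAA. Saa1 and Saa2, which lie head to head on chromosome 7, shared TTGCACAA at -182 to -175 and -183 to -176 from their RefSeq start sites. Their 250-base windows were identical at 95.6% of aligned bases and their transcripts at 94.4%.

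Over the 250 bases before the start in all 26 members with an entry, and with both strands read, CTGGGAA was found in 5 members (19.2%, against 9.08% of 27025 promoters of the same length). TTCNNNGAA was found in 6 members (23.1%, against 7.18%): Apcs, Fga, Fgb, Itih4, Steap4 and Socs3. Its stricter form TTCCNGGAA, which is contained in it, was found in Fga and Steap4 (7.69%, against 0.914%). TTGCNNAA was found in 13 members (50%, against 9.55%), among them all 4 serum amyloid genes, Orm2, Orm3 and Lcn2. The 13 include Itih2, whose window lies inside the gene in GENCODE, and both Saa1 and Saa2, whose windows are near copies. For 22 of the 26 windows, bases after the RefSeq start were found in a GENCODE transcript on the stated strand. For NF-kappaB only 1 narrow form of the core motif was searched, and it was in none of the 26. That form was in only 0.337% of all promoters, so its absence from 26 windows cannot show that NF-kappaB sites were missing. Looser forms were not searched. These matches are descriptions of letters and not sites of binding.

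RNA of the fibrinogen chains, Itih genes, pentraxins and hemopexin was found almost only in liver, while Il6st, Il1r1, Socs3, Steap4 and Saa3 were not called between the tissues and their ranges overlapped. Between the sham tissues 24 of the 32 members differed in edgeR (adjusted p under 0.05, Benjamini-Hochberg over all genes), 23 of them lower in SAT and Lbp alone higher, where 67.1% of all 19954 genes tested differed, 36.5% higher and 30.6% lower in SAT. Between the VATR tissues 27 members differed, 26 lower in SAT and again Lbp alone higher, against 65.2% of all genes (33% higher and 32.2% lower). The median difference of the members (sham SAT minus sham liver, log2) was -5.01, where that of all genes was 0.11. Upper quartile scaling moved that all-gene median to 0.24, and in the VATR tissues from 0.0049 to 0.13, and left Lbp as the only member called higher in SAT and the same number called lower.

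**Figure D1:**
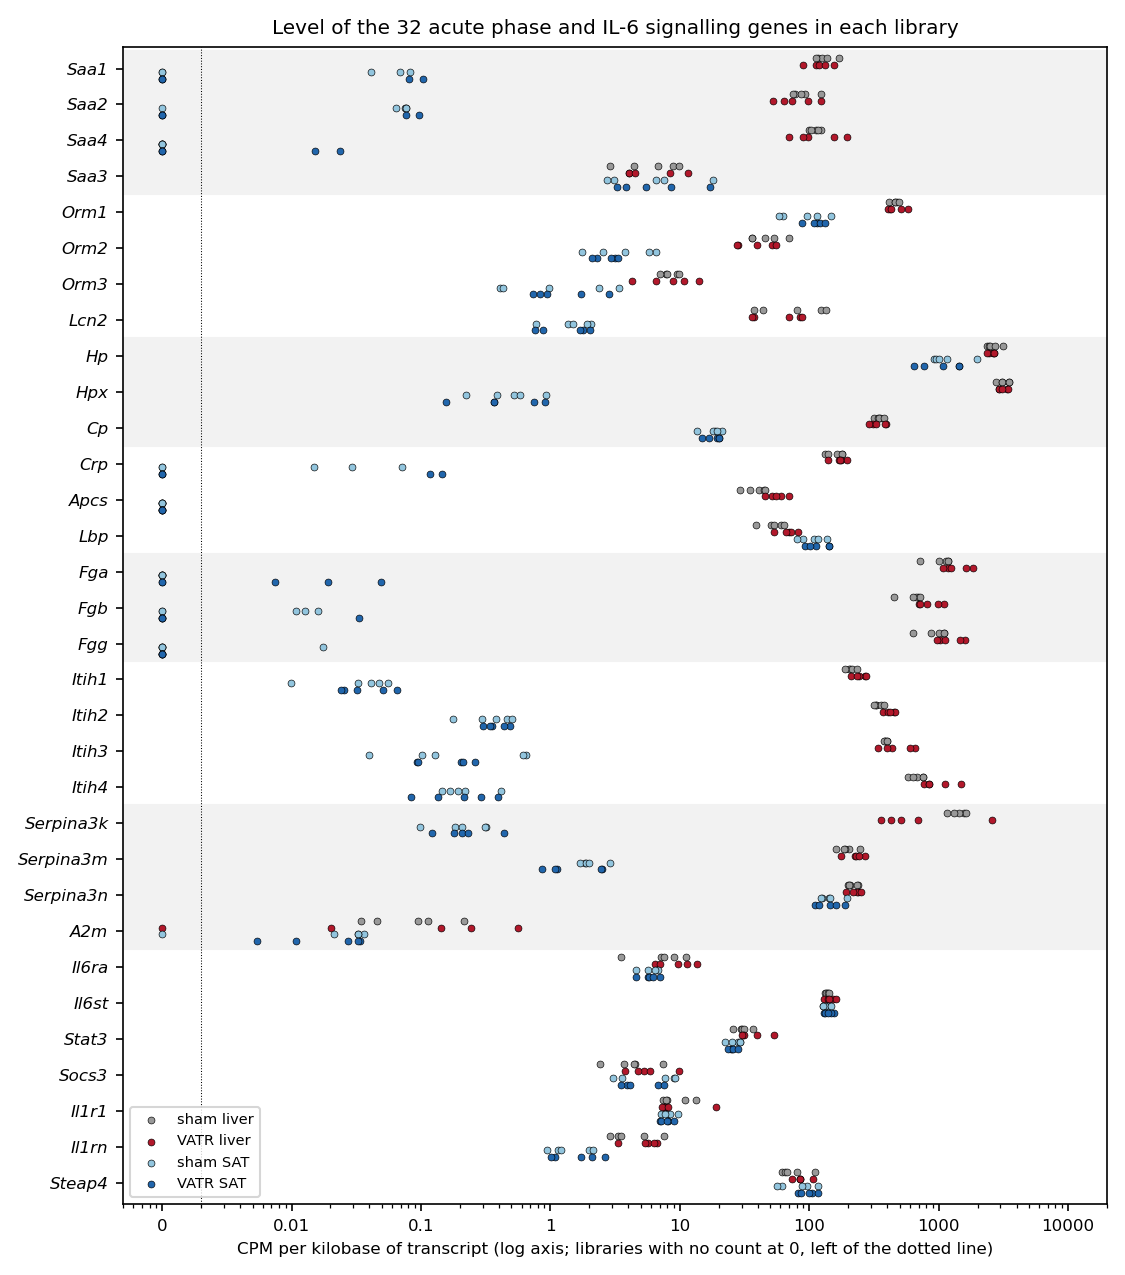
Level of each of the 32 members in each of the 20 libraries, as CPM per kilobase of its principal GENCODE transcript on a log axis, with libraries without a count set left of the dotted line. Grey and red points are sham and VATR liver and light and dark blue points are sham and VATR SAT; the fibrinogen, pentraxin and Itih genes lie far to the right in liver only, while the points of both tissues overlap for Il6st, Il1r1, Socs3, Steap4 and Saa3, and Lbp lies further right in SAT.

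The fibrinogen chains were nearly absent from SAT. Fga reached 1043 ± 198 CPM per kilobase (SD, n = 5) in sham liver and had 0 counts in all 5 sham SAT libraries, which puts liver at least 181668-fold higher when 3 counts over the group stand in for 0. Fgg had 1 count and Fgb 6 counts in sham SAT. Apcs, which encodes serum amyloid P, had 0 counts in all 10 SAT libraries (liver at least 2554-fold higher in sham), and Saa4, the constitutive serum amyloid of lipoproteins, had 0 counts in sham SAT and 3 in VATR SAT. The acute phase serum amyloids Saa1 and Saa2 had 5 and 8 counts in sham SAT, and Crp, which in mice is only a weak acute phase reactant, had 7. Counts as few as these allow no difference between sham and VATR SAT to be read.

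Hemopexin (Hpx), which carries free heme, was the highest member per kilobase in sham liver at 3185 ± 320.2 CPM per kilobase and differed by -12.56 ± 0.48 (SE) in sham SAT (edgeR adjusted p 1.7e-14). Haptoglobin (Hp), which binds free hemoglobin, came next in liver at 2631 ± 313 and the highest member in sham SAT at 1204 ± 438 CPM per kilobase, a mean of 45.8% of the liver level and a fitted difference of -1.13 ± 0.23 (edgeR adjusted p 0.00024). Ceruloplasmin (Cp), the copper-carrying ferroxidase, was at 5.27% of its liver level in sham SAT. Those 3 genes handle heme, hemoglobin and metal, and in SAT they ran from near absence to a level of the same order as in liver.

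Among near copies the tissues also differed. Orm1, an abundant orosomucoid, was at 20.9% of its sham liver level in sham SAT, Orm3 at 17.9% and Orm2 at 8.46%. The level of Orm3 rested on sham SAT libraries 3 and 4, with a difference between the sham tissues of -2.47 (log2) with them and -3.72 without. That of Orm2 was -3.56 and -4.10. Serpina3n, an inhibitor of granzyme B and other serine proteases, was at 67.7% of its liver level in sham SAT (-0.56 ± 0.15, edgeR adjusted p 0.0022, and -0.37 without sham SAT libraries 3 and 4), Serpina3m at 1.05% and Serpina3k at 0.0157%. The transcripts of Orm1 and Orm2 are identical at 91.0% of aligned bases and those of Serpina3k and Serpina3m at 90.9%, so reads may have been shared between them. The annotations of Serpina3k and Serpina3m overlap on the same strand as well, and their separate values are uncertain for that reason.

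Lbp, which hands bacterial lipopolysaccharide to its receptor complex, was the only member called higher in SAT. Sham liver libraries 1 to 5 had 128, 97.4, 134, 154 and 160.4 CPM, and sham SAT libraries 349, 276, 225, 203 and 294 CPM. The lowest sham SAT library was above the highest sham liver library, and libraries 3 and 4, rich in B- and T-cell genes, were the lowest of the SAT group. The difference was 1.00 ± 0.17 in sham (edgeR adjusted p 3.2e-05) and 0.79 ± 0.17 in VATR (edgeR adjusted p 0.00038), and 1.24 in sham without SAT libraries 3 and 4.

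Il6st, the gp130 chain, was at 98.6% of its liver level in sham SAT (-0.02 ± 0.08, edgeR adjusted p 0.84) with 339 to 363 CPM in sham liver and 326 to 380.4 CPM in sham SAT. Steap4, a metalloreductase of fat and liver that cytokines induce, was at 108% (0.11 ± 0.19, edgeR adjusted p 0.62), and Saa3, the serum amyloid of macrophages and fat, at 116% (0.22 ± 0.53, edgeR adjusted p 0.74). Il1r1 (-0.21 ± 0.23) and Socs3 (0.53 ± 0.35) also did not pass in sham. Stat3, Il6ra and A2m did not pass in sham but were called lower in SAT in the VATR groups, Stat3 by -0.54 ± 0.14 (edgeR adjusted p 0.0020) and Il6ra by -0.71 ± 0.24 (edgeR adjusted p 0.013). The test of the change in that gap between sham and VATR is the difference in response, which none of the 3 passed. Il1rn, the natural antagonist of the IL-1 receptor, was lower in SAT, with -1.61 ± 0.32 in sham (edgeR adjusted p 0.00019).

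In liver, VAT removal went with higher means for the 3 fibrinogen chains, the 4 Itih genes, Apcs and Lbp, by 0.24 to 0.59 on the log2 scale, but none of the 32 members passed the edgeR test, where 0% of all 17078 genes tested passed. The smallest adjusted p among the members was 0.256, and limma-voom called none of them either. At an unadjusted edgeR p under 0.05 stood 7 members (21.9%, against 9.9% of all genes), all 7 with positive differences: Apcs, Itih2, Itih4, Fgb, Lbp, Itih1 and Fga. With all 20 libraries in 1 edgeR fit the share was 2 of 32 (6.25%, against 8.64% of all genes), so the excess over all genes depended on the fit. DESeq2 called 2 members, Itih2 and Apcs, both higher, and 1.29% of all genes. The member differences were positive for 23 of 32 (71.9%, against 52.2% of all genes) with a median of 0.16, where the median of all genes was 0.01. Between libraries these genes do not vary independently, as the account of single libraries shows. The members were also chosen with earlier results of these data known, so the shares set against all genes are descriptions.

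**Figure D2:**
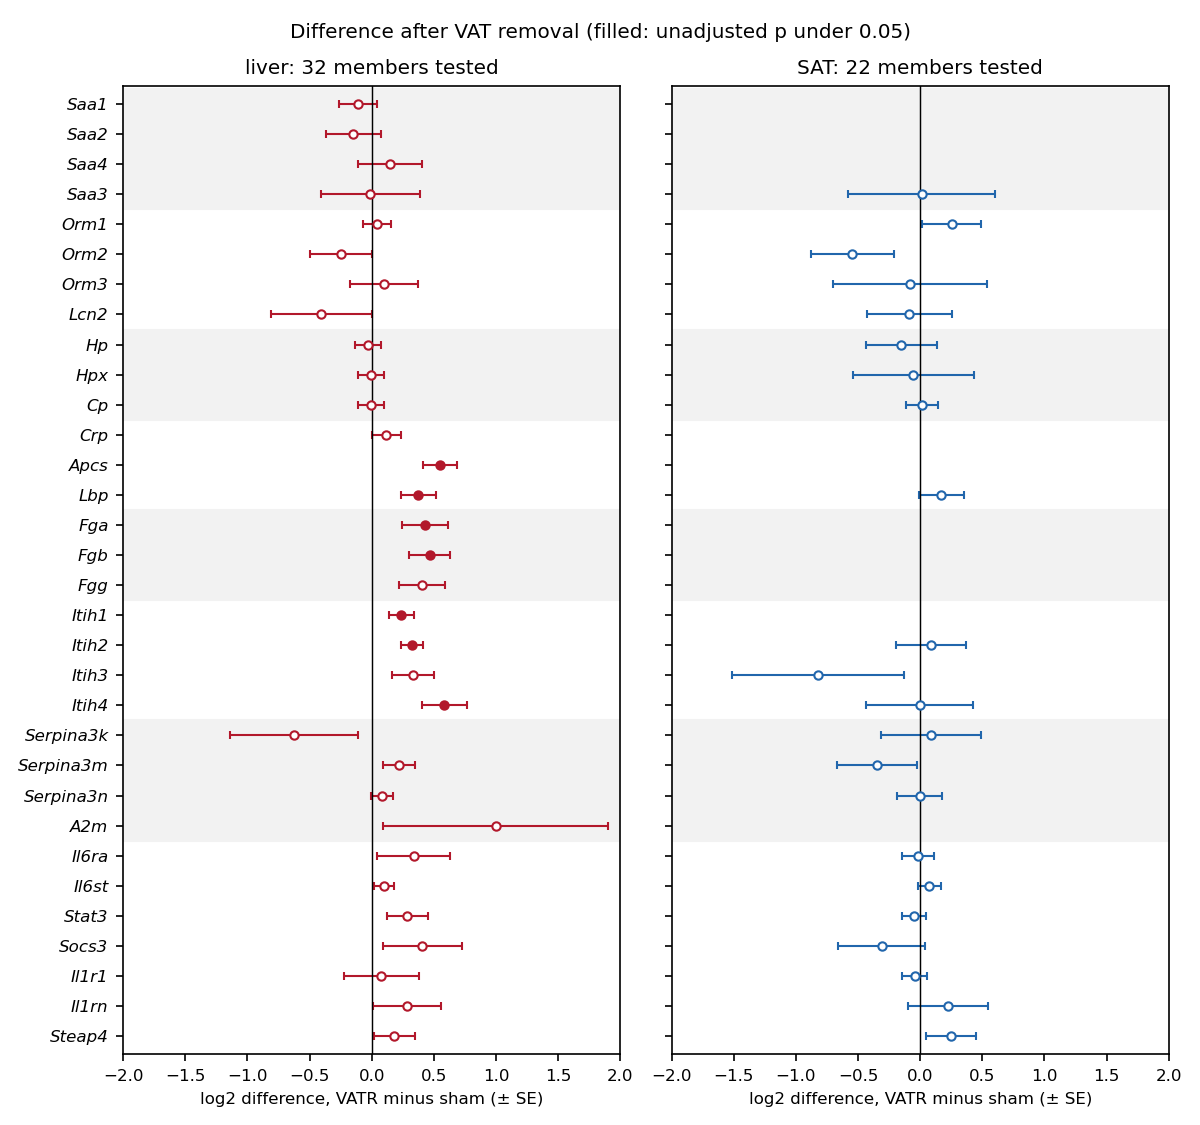
Difference of VATR minus sham on the log2 scale (x axis, point ± SE from edgeR) for each member, in liver (32 tested) and in SAT (22 tested), with points filled at an unadjusted p under 0.05. The 7 filled points are all in liver and all to the right of 0, from Itih1 at 0.24 to Itih4 at 0.59; no SAT point is filled.

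Fga had 3049, 1842, 2927, 3067 and 2601 CPM in sham liver libraries 1 to 5 and 4748, 3036, 4195, 3207 and 2791 CPM in VATR liver libraries 1 to 5. VATR libraries 1 and 3 were the highest and sham library 2 the lowest, and VATR libraries 2 and 5 lay within the sham range. The difference was 0.43 ± 0.19 (edgeR adjusted p 0.478). Fgb had 2641, 1735, 2538, 2729 and 2410.0 CPM in sham and 4224, 2703, 3754, 3072 and 2749 CPM in VATR. The same libraries were highest and lowest, and VATR library 2 alone lay within the sham range. Its difference was 0.47 ± 0.17 (edgeR adjusted p 0.394). Fgg had 1907, 1101, 1752, 1922 and 1522 CPM in sham and 2801, 1773, 2534, 1939 and 1692 CPM in VATR, with the same order of extremes. Its difference was 0.41 ± 0.19 (edgeR adjusted p 0.516). Without VATR library 1 the differences of the 3 chains were 0.29 to 0.36 and without VATR library 3 they were 0.33 to 0.41.

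The Itih genes encode heavy chains that are linked to hyaluronan in the extracellular matrix, and Itih4 is a plasma protein and acute phase reactant of the same family. Itih1, Itih3 and Itih4 lie together on chromosome 14 (chr14:30886476-30943289 spans the 3 genes in GRCm38), and Itih2 lies on chromosome 2. Itih4 had 2283, 1728, 2032, 2279.8 and 1881 CPM in sham liver and 4465, 2302, 3341, 2509 and 2531 CPM in VATR liver. It was the only member whose sham and VATR ranges did not overlap in liver, although the lowest VATR library (2302 CPM) and the highest sham library (2283 CPM) nearly met. Its difference was 0.59 ± 0.18 (edgeR adjusted p 0.332) and 0.40 ± 0.14 without VATR library 1 (edgeR adjusted p 0.515).

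Itih2 had 1021, 1014, 1115, 1169.9 and 983 CPM in sham liver and 1409.7, 1163, 1259.5, 1438 and 1309.6 CPM in VATR liver. All 5 VATR libraries were above the sham mean, 4 of them above every sham library, and only VATR library 2 lay within the sham range. The difference of 0.32 ± 0.09 was not called by edgeR (adjusted p 0.305) and was called by DESeq2 (adjusted p 0.011). Itih1 had 638, 620.1, 662, 716 and 581 CPM in sham liver and 831, 642, 838, 740.4 and 714 CPM in VATR liver, with VATR libraries 2 and 5 inside the sham range. Its difference was 0.24 ± 0.10 (edgeR adjusted p 0.467). Itih3 differed by 0.33 ± 0.17 (edgeR adjusted p 0.555), and this rested on VATR libraries 1 and 3 at 1370.2 and 1272 CPM, since the other 3 VATR libraries had 717 to 915 CPM against 801 to 845 CPM in sham.

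Apcs encodes serum amyloid P, the pentraxin that is the main acute phase reactant of its family in mice. Sham liver libraries had 39.5, 28.5, 43.3, 44.3 and 33.9 CPM, and VATR liver libraries 67.8, 59.3, 50.3, 44.2 and 53.4 CPM. Only VATR library 4 lay within the sham range, level with sham library 4. The difference of 0.55 ± 0.14 had the smallest p among the members, and was not called by edgeR (adjusted p 0.256) but was by DESeq2 (adjusted p 0.030). Without VATR library 1 it was 0.46 ± 0.13 (edgeR adjusted p 0.452). Crp, the other pentraxin, lies beside Apcs on chromosome 1 and differed by 0.12 ± 0.11 (edgeR adjusted p 0.775), with 226 to 305 CPM in sham and 236 to 330.1 CPM in VATR.

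Lbp had 128, 97.4, 134, 154 and 160.4 CPM in sham liver and 205, 136, 177, 182 and 169 CPM in VATR liver. VATR library 2 alone overlapped with the sham libraries. The difference was 0.38 ± 0.14 (edgeR adjusted p 0.422). Without VATR library 1 it was 0.30 ± 0.14. Then 4 of 32 members rather than 7 were at an unadjusted edgeR p under 0.05, against 1467 of all 17408 genes.

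**Figure D3:**
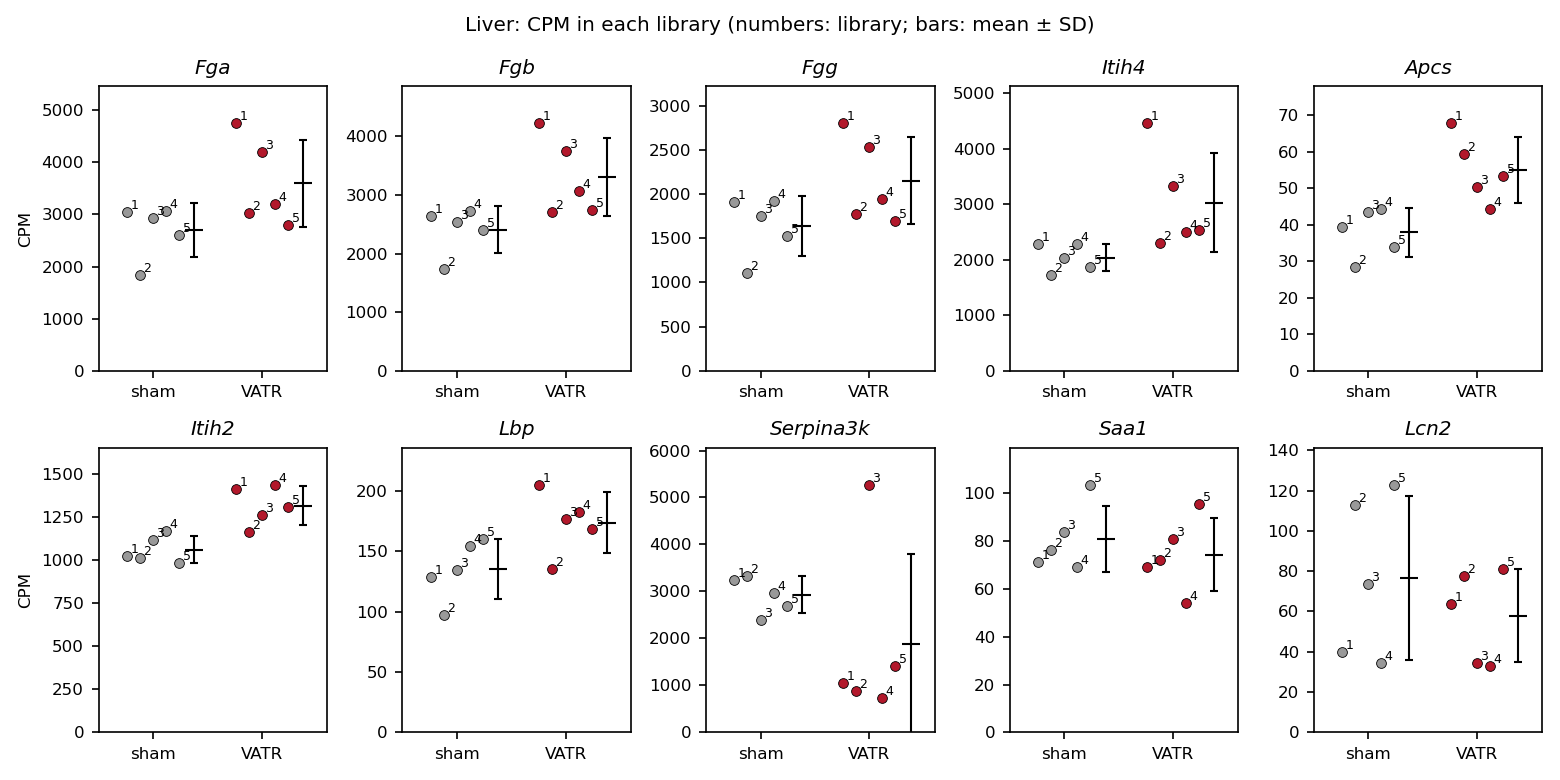
CPM of 10 members in each liver library (numbers beside the points are library numbers; bars are mean ± SD of 5 libraries, with the lower bar of Serpina3k ending at the axis). Itih4 has VATR points from 2302 to 4465 CPM above all sham points, Serpina3k has VATR library 3 at 5273 CPM and the other 4 VATR libraries below all sham points, and Saa1 and Lcn2 overlap.

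The serum amyloids, orosomucoids and Lcn2, known as reactants to IL-1, had differences of both signs in liver, and none passed. Whether they differed from the fibrinogen chains in response was not tested. Saa1, the major acute phase serum amyloid, had 71.3, 76.4, 83.5, 69.1 and 103 CPM in sham liver and 68.9, 72.1, 80.8, 54.2 and 95.2 CPM in VATR liver. The groups overlapped throughout, and the highest library was a sham library (5). Its difference was -0.11 ± 0.15 (edgeR adjusted p 0.857) and that of its near copy Saa2 was -0.15 ± 0.22 (edgeR adjusted p 0.879). Lipocalin-2 (Lcn2), which withholds iron from bacteria, ranged from 34.3 to 123 CPM in sham and from 32.8 to 81 CPM in VATR, with a difference of -0.41 ± 0.41 (edgeR adjusted p 0.789). Orm1 (0.04 ± 0.11), Orm2 (-0.25 ± 0.25) and Orm3 (0.10 ± 0.27) did not pass, and neither did Hp (-0.03 ± 0.10), Hpx (-0.0039 ± 0.11) or Cp (-0.0050 ± 0.10). For Hp, Hpx and Cp, which are high and steady in liver, the small SE limits the difference more closely than for Lcn2 or Saa3 (-0.01 ± 0.40).

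Serpina3k, a liver-made serine protease inhibitor, was the member that 1 library decided. Sham liver libraries had 3252, 3333, 2395, 2977 and 2697 CPM, and VATR liver libraries had 1049, 877, 5273, 736 and 1422 CPM. VATR libraries 1, 2, 4 and 5 were below every sham library and VATR library 3 was above every sham library. With all libraries the difference was -0.62 ± 0.51 (edgeR adjusted p 0.735). Without VATR library 3 it was -1.52 ± 0.19 and was called by edgeR (adjusted p 0.019), with 53 genes called in all. This value is named because it was seen, not by the rule for named genes. Serpina3m, which overlaps it in the annotation, differed by 0.22 ± 0.13 (edgeR adjusted p 0.618) and Serpina3n by 0.08 ± 0.09 (edgeR adjusted p 0.805).

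Of the signalling members, Stat3 had 179, 155, 183, 190.2 and 222 CPM in sham liver and 322, 187, 240.0, 190.2 and 184 CPM in VATR liver. VATR libraries 1 and 3 were the highest and the other 3 lay within the sham range. Its difference was 0.29 ± 0.17 (edgeR adjusted p 0.611). Socs3, the feedback inhibitor induced by STAT3, had 6.2 to 19 CPM in sham and 9.6 to 25.1 CPM in VATR (0.41 ± 0.32, edgeR adjusted p 0.718), and it too was highest in VATR library 1. The receptor genes Il6ra (0.34 ± 0.29), Il6st (0.10 ± 0.08) and Il1r1 (0.08 ± 0.31), the antagonist Il1rn (0.28 ± 0.27) and Steap4 (0.18 ± 0.17) did not pass. A2m, alpha-2-macroglobulin, had a mean of 0.461 CPM in sham and 0.896 CPM in VATR liver, with 58 and 122 counts in the groups, and its difference was 1.00 ± 0.91 (edgeR adjusted p 0.758).

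The liver members moved in blocks by library. VATR library 1 was the highest of the 10 liver libraries for 11 members: Fga, Fgb, Fgg, Itih3, Itih4, Apcs, Lbp, Stat3, Socs3, Orm1 and Orm3. VATR library 3 was the highest for 9 others, among them Il6ra, Il6st, Il1r1, Crp, Saa3, Saa4 and Serpina3k. Sham library 5 was the highest for 6 (Saa1, Saa2, Orm2, Lcn2, Il1rn and Steap4), and sham library 2 was the lowest for 10, among them all 3 fibrinogen chains, Apcs, Lbp, Itih4, Stat3 and Socs3. The fibrinogen chains were thus highest in a VATR library and Saa1 and Saa2 in a sham library, while Saa3 and Saa4 were highest in VATR library 3.

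Marker levels moved with some of these libraries. VATR library 1 had the highest summed macrophage level (715 CPM over 8 genes, against 274 to 526 CPM in sham and up to 479 CPM in the other VATR libraries) as well as the highest Kupffer level. All 5 Kupffer genes had positive differences in liver, with a median of 1.05 and summed levels of 124 to 296 CPM in sham and 181 to 618 CPM in VATR. All 6 interferon-induced genes had negative differences, all 6 at an unadjusted edgeR p under 0.05, and none was called by edgeR or DESeq2. Their summed levels were 123 to 1079 CPM in sham and 84.7 to 113 CPM in VATR, so every sham sum was above every VATR sum. Hepatocyte genes had 3 of 8 positive differences and overlapping sums of 67749 to 95185 CPM in sham and 67638 to 89246 CPM in VATR. Lymphocyte genes had 5 of 7 positive differences (median 0.77, 3 at an unadjusted edgeR p under 0.05), with sums of 7.62 to 12.9 CPM in sham and 8.61 to 22.5 CPM in VATR, highest in VATR library 1. Mesothelial genes had 4 of 4 (median 0.76, 2 at an unadjusted edgeR p under 0.05), with sums of 5.67 to 9.79 CPM in sham and 7.84 to 19.0 CPM in VATR, highest in VATR library 2. No gene of these 6 lists was at 0 in all 10 liver libraries. The part of these levels in the member differences was not tested, beyond the values without VATR library 1 above.

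**Figure D4:**
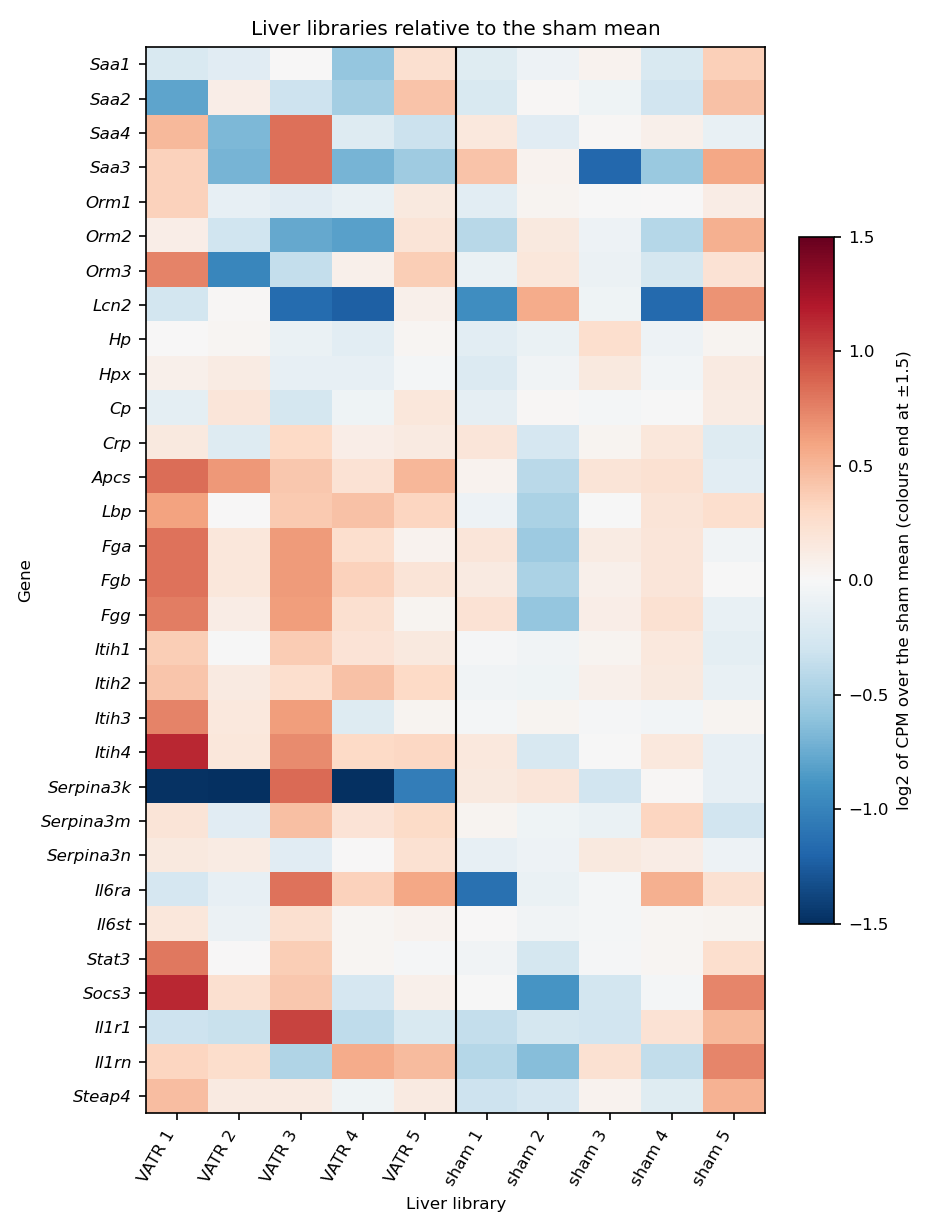
Each liver library (columns, VATR on the left and sham on the right) as log2 of its CPM over the mean of the 5 sham libraries, for 31 members (rows; A2m, which has a library at 0, is not drawn), with colours ending at ±1.5. VATR 1 and VATR 3 are red from Apcs to Itih4 while Saa1, Saa2, Orm2 and Lcn2 are reddest in sham 5, and the row of Serpina3k is blue in VATR except in VATR 3.

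In SAT, no member passed the test between VAT removal and sham. The low-count filter left 22 of the 32 members, and 0 of the 22 were called by edgeR, DESeq2 or limma-voom, where edgeR called 0% and DESeq2 0.853% of all 18530 genes. At an unadjusted edgeR p under 0.05 stood 0 members, against 10.6% of all genes. Differences were positive for 9 of 22 (40.9%, against 49.7% of all genes) with a median of -0.01, and in none of the 22 were the sham and VATR ranges apart. The smallest adjusted p was 0.565.

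Orm2 had 1.97, 2.93, 5.1, 4.46 and 1.37 CPM in sham SAT and 2.46, 1.77, 1.61, 2.29 and 2.58 CPM in VATR SAT. Sham libraries 3 and 4, those rich in B- and T-cell genes, were the highest and the rest of sham overlapped with VATR. Its difference was -0.55 ± 0.34 (edgeR adjusted p 0.565), and 0.04 ± 0.27 without them. Orm1 had 75.0, 114, 48.7, 45.5 and 89.2 CPM in sham SAT and 88.5, 85.0, 93.9, 68.2 and 103 CPM in VATR SAT, so here sham libraries 3 and 4 were the lowest. Its difference of 0.25 ± 0.24 (edgeR adjusted p 0.734) became -0.07 ± 0.15 without them. Orm3, which was not among the 8 members with the smallest p, went from -0.08 ± 0.62 to 1.21 ± 0.53 without them, with an edgeR adjusted p of 0.562.

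Steap4 had 301, 367, 194, 177 and 276 CPM in sham SAT and 334, 256, 313, 368 and 274 CPM in VATR SAT. Again sham libraries 3 and 4 were below all others. The difference was 0.25 ± 0.20 (edgeR adjusted p 0.675), and -0.02 ± 0.14 without them. Lbp had 349, 276, 225, 203 and 294 CPM in sham SAT and 285, 360.3, 236, 256 and 362 CPM in VATR SAT, with the groups overlapping. Its difference was 0.17 ± 0.18 (edgeR adjusted p 0.767), and -0.02 ± 0.16 without sham libraries 3 and 4. Itih3 had 0.268, 0.0832, 1.36, 1.30 and 0.213 CPM in sham SAT and 0.426, 0.442, 0.194, 0.199 and 0.546 CPM in VATR SAT. Its difference of -0.82 ± 0.69 (edgeR adjusted p 0.692) rested on those sham libraries and was 0.95 ± 0.54 without them (edgeR adjusted p 0.629).

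Socs3 had 22.9, 7.76, 23.6, 19.5 and 9.16 CPM in sham SAT and 17.4, 9.94, 8.98, 19.3 and 10.5 CPM in VATR SAT, with high and low libraries in both groups. Its difference was -0.31 ± 0.35 (edgeR adjusted p 0.787), and 0.0019 ± 0.42 without sham libraries 3 and 4. Serpina3m had 4.82, 3.10, 2.81, 3.13 and 3.32 CPM in sham SAT and 1.88, 4.17, 1.79, 1.44 and 4.12 CPM in VATR SAT. VATR libraries 1, 3 and 4 were below every sham library and libraries 2 and 5 were not. Its difference was -0.35 ± 0.32 (edgeR adjusted p 0.727), and -0.48 ± 0.38 without sham libraries 3 and 4. Il6st had 328, 362, 341, 380.4 and 326 CPM in sham SAT and 399, 333, 377, 340.2 and 358 CPM in VATR SAT, a difference of 0.07 ± 0.09 (edgeR adjusted p 0.811), and 0.10 ± 0.09 without them.

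Among the remaining members of SAT, haptoglobin (Hp) ranged from 1247 to 2649 CPM in sham and from 864 to 1935 CPM in VATR (-0.15 ± 0.29, edgeR adjusted p 0.885). Saa3 was highest in library 1 of both groups, at 10.0 CPM in sham and 9.42 CPM in VATR, and overlapped otherwise (0.01 ± 0.59, edgeR adjusted p 0.997). Without sham libraries 3 and 4 the differences were -0.28 ± 0.35 for Hp and -0.06 ± 0.81 for Saa3. Stat3 (-0.05 ± 0.10), Il1r1 (-0.04 ± 0.10), Il6ra (-0.02 ± 0.13) and Cp (0.015 ± 0.13) had the smallest standard errors beside Il6st. Their differences without those libraries were 0.02 ± 0.09, -0.05 ± 0.12, 0.08 ± 0.14 and -0.11 ± 0.11. In all, 13 of the 22 members changed sign when those libraries were left out. Over the 8 lymphocyte genes, all 8 had negative differences in SAT (median -4.40, summed levels of 6.72 to 467 CPM in sham and 7.01 to 11.6 CPM in VATR), and none was at 0 in all 10 SAT libraries. Without sham libraries 3 and 4, 3 of the 8 were negative. The 6 fat cell genes had 6 positive differences, and 1 without those libraries (sums of 5082 to 10637 CPM in sham and 7549.5 to 9310.1 CPM in VATR).

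**Figure D5:**
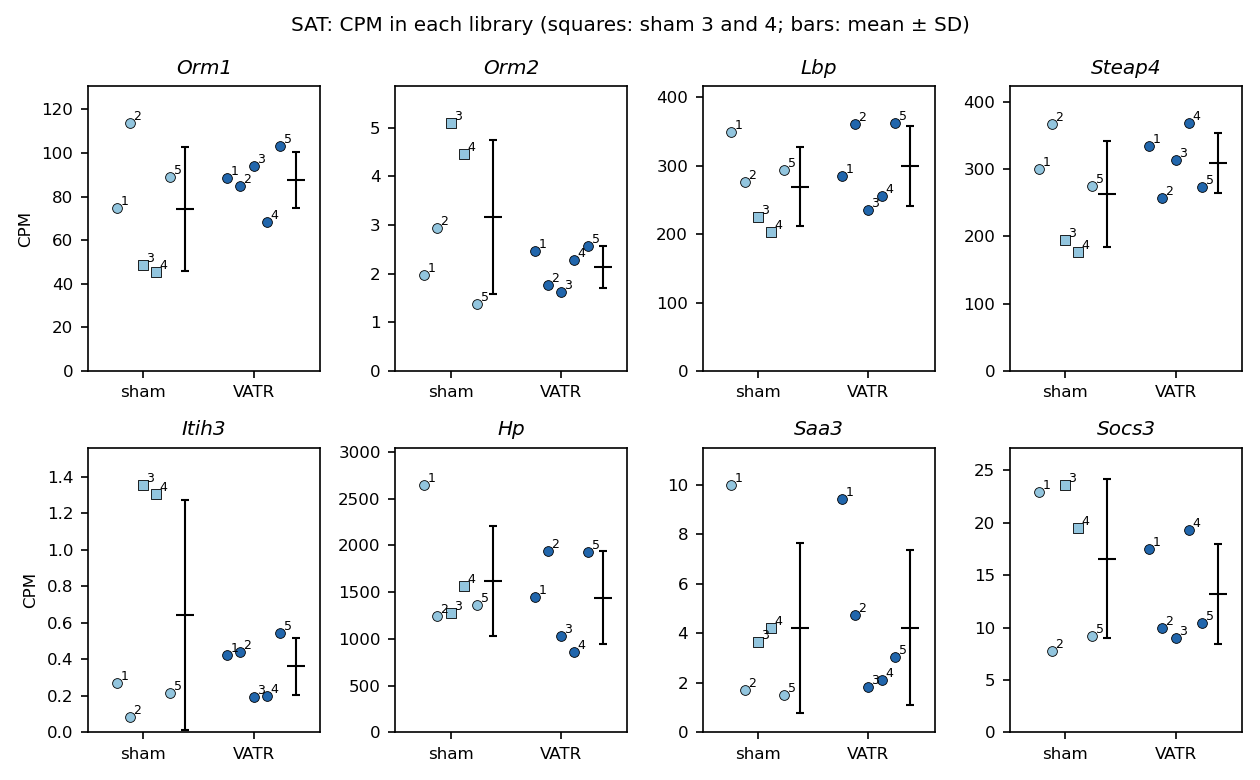
CPM of 8 members in each SAT library (numbers are library numbers, squares are sham libraries 3 and 4, bars are mean ± SD of 5 libraries). The squares are the lowest sham points for Orm1, Lbp and Steap4 and the highest for Orm2 and Itih3, and all panels overlap between sham and VATR.

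Whether the tissues responded differently was tested as the VATR minus sham difference in SAT less that in liver, over all 20 libraries. None of the 32 members passed in edgeR, DESeq2 or limma-voom, where edgeR called 0% and DESeq2 0.621% of all 19954 genes. Only Fga was at an unadjusted edgeR p under 0.05, against 10.1% of all genes, and it had 0 counts in sham SAT and 7 in VATR SAT, too few for a fold. Saa4, with 0 and 3 counts in the same groups, allows none either. Itih3 differed by -1.17 ± 0.66 (edgeR adjusted p 0.559), and by 0.60 ± 0.48 without sham SAT libraries 3 and 4. Stat3 differed by -0.34 ± 0.19 (edgeR adjusted p 0.564) and Serpina3m by -0.58 ± 0.34 (edgeR adjusted p 0.586). For the members that led in liver, Itih4 differed by -0.59 ± 0.45 and Itih2 by -0.24 ± 0.27 between the tissues. In sham SAT these 2 genes were at only 0.684 and 1.13 CPM, or 0.0335% and 0.107% of sham liver. Apcs had 0 counts in all 10 SAT libraries. For such genes this test could hardly decide, so the liver values were not shown to be particular to liver, nor to be shared with SAT.

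Around the members, other genes of the same pathways were counted from lists chosen with earlier results of these data known. Of these genes edgeR called 0 in either tissue, while DESeq2 called 2 in liver. Those at an unadjusted edgeR p under 0.05 with all libraries of the tissue are all named below. Il6 itself was barely read, with 8 counts in sham liver, all in 1 library, 0 in VATR liver, 9 in sham SAT and 16 in VATR SAT. Of 20 further genes of the IL-6 family (ligands, receptors, kinases and targets, Il6 included), 16 were tested in liver, with 6 positive and 10 negative differences, and 17 in SAT, with 4 positive and 13 negative. Without sham SAT libraries 3 and 4 the signs in SAT were 12 positive and 5 negative. Of these 17 genes, 4 were then at an unadjusted edgeR p under 0.05, against 1670 of all 19035 genes. Lifr, the receptor that pairs with gp130 for LIF, had 0.36 ± 0.14 in liver (edgeR adjusted p 0.437) and 0.22 ± 0.10 in SAT (edgeR adjusted p 0.465), and 0.13 ± 0.08 in SAT without those libraries (edgeR adjusted p 0.654). Clcf1, a ligand of the family, had -2.21 ± 0.91 in SAT (edgeR adjusted p 0.442), with 1.5 to 36.5 CPM in sham and 2.26 to 4.21 CPM in VATR, and 0.63 ± 0.25 without sham SAT libraries 3 and 4 (edgeR adjusted p 0.561). Ptpn11, the phosphatase SHP2, had -0.14 ± 0.06 in liver (edgeR adjusted p 0.486).

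Of 15 genes of IL-1 and TNF signalling, 14 were tested in each tissue, with 9 positive in liver and 1 positive in SAT, or 8 in SAT without sham libraries 3 and 4. Irak4, a kinase below the IL-1 receptor, had 0.22 ± 0.09 in liver (edgeR adjusted p 0.444). Il1rap, the second chain of that receptor, had -0.38 ± 0.16 in SAT (edgeR adjusted p 0.438), and -0.43 ± 0.17 without sham libraries 3 and 4 (edgeR adjusted p 0.561). Without those libraries 3 of the 14 in SAT were at an unadjusted edgeR p under 0.05, against 1670 of all 19035 genes.

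Among 15 further positive acute phase genes in liver, 11 differences were positive, 3 were at an unadjusted p under 0.05 and DESeq2 called 2, Fgl1 and Mt1. Fgl1, a fibrinogen-like hepatokine, had 85.6 to 121 CPM in sham and 201 to 581 CPM in VATR, with no overlap (1.57 ± 0.27, edgeR adjusted p 0.175). Mt1, a metallothionein that binds zinc, had 13.9 to 69.8 CPM in sham and 69.5 to 118 CPM in VATR (1.43 ± 0.41, edgeR adjusted p 0.309). Complement C3 had 7718 to 9509 CPM in sham and 8124 to 15028 CPM in VATR (0.50 ± 0.17, edgeR adjusted p 0.370). In SAT 4 of 11 were positive, and Serpina1b, an alpha-1-antitrypsin copy, had -1.42 ± 0.55 (edgeR adjusted p 0.433), and -0.26 ± 0.39 without sham libraries 3 and 4 (edgeR adjusted p 0.843).

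The negative acute phase genes, which fall during a full acute phase response, had 4 positive and 4 negative differences in liver, and the 4 at an unadjusted p under 0.05 were all positive. They were Serpina6, which carries corticosterone (0.75 ± 0.28, edgeR adjusted p 0.416), transferrin (Trf, 0.25 ± 0.10, edgeR adjusted p 0.464), Fetub (0.36 ± 0.15, edgeR adjusted p 0.472) and Ahsg (0.23 ± 0.10, edgeR adjusted p 0.472). In SAT 3 of the 8 were tested and all 3 were positive, at 0.03 to 0.15, while 1 of the 4 tested without sham libraries 3 and 4 was positive. Alb, Ttr, Apoa1 and Ahsg of this list are hepatocyte markers as well.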

How the data were processed

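Total RNA of 20 liver and SAT libraries was depleted of ribosomal RNA, per the labels' protocols, and the submitters' processing notes name bcl2fastq, STAR 2.5.1a, featureCounts 1.46 (Subread) and the GRCm38 build. The table deposited by the authors holds raw counts per gene symbol with no normalization. Not given in the sources used here are the annotation, the strand setting and the treatment of multi-mapped reads. Near copies may therefore share reads.

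Of 40757 entries, 317 exact repeats were dropped and 117 symbols with several differing entries were kept apart. Sample titles gave the groups. Each tissue had a fit of its own in edgeR 4.0.16 (R 4.3.3; filterByExpr, TMM, robust quasi-likelihood F-test), and the difference in response and the contrasts between tissues came from 1 fit of all 20 libraries with 4 group means, which treats all libraries as separate mice. All fits used the whole table, with p adjusted by Benjamini and Hochberg over all genes at a threshold of 0.05. CPM were scaled by TMM over all 20 libraries. Lengths per kilobase and gene positions are those of GENCODE M21 (GRCm38). The scripts were tested on simulated counts with known changes.

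The members and gene lists were chosen with earlier results of these data known. Values in every library are given for members called in a tissue by edgeR or DESeq2 and for the 8 smallest p in each tissue, the 5 smallest p are named for the difference in response, any member may be named between tissues, and up to 3 genes with the smallest p are named per pathway list, besides the few said to fall outside this rule and members given by range. Alternatives were DESeq2 1.42.0, limma-voom (limma 3.58.1), RLE and upper quartile scaling, no filter, a filter of 1 CPM in 5 libraries, no robust fitting, library number as a block, all libraries in 1 fit, a table without mitochondrially encoded genes and the 20 genes with the most counts, leaving out sham SAT libraries 3 and 4, and leaving out each library in turn. A list of transcription factors and 1 further motif are not reported here.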

Additional observations from a re-analysis of the deposited data

Results flagged for a closer look

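The values of 108 sets of 5 libraries (a member in a group) were examined as log2 CPM. In 2 sets, the gap of 1 library to the nearest other took up more than 0.71 of the whole log2 range, where chance gives about 1 in 20. The levels below are plain CPM. Fgb in sham liver was lowest in library 2, at 1735 CPM, with the other 4 libraries at 2410.0 to 2729 CPM. Il1r1 in VATR liver was highest in library 3, at 92.5 CPM, with the other 4 libraries at 35.2 to 39.1 CPM.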

How the results depend on the processing

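The count of members called in liver was 0 in edgeR, 2 with DESeq2, and 0 to 1 when libraries were left out in turn, the 1 being Serpina3k without VATR liver replicate 3 (-1.52). The count at an unadjusted edgeR p under 0.05 in liver was 7, and 2 (6.25%, against 8.64% of all genes) with all libraries in 1 fit. It was 4 to 9 when libraries were left out in turn, against 1245 to 2012 of all genes in those fits. The 4 came without VATR liver replicate 1, against 1467 of all 17408 genes. The cause was not tested. Without sham SAT libraries 3 and 4 the sign turned for 13 of the 22 members tested in SAT, among those with a value in every library for Itih3 (0.95), Lbp (-0.0231), Orm1 (-0.0681), Orm2 (0.0392), Socs3 (0.0019) and Steap4 (-0.0151), and for Itih3 in the difference in response (0.60). Between tissues, 15 named members were followed, taken from those called in sham and leaving out those with few SAT counts. Direction and side of the threshold stayed the same in 300 of 300 values in sham and 285 of 285 in VATR, each value a member in a setting. Members not called in sham were not followed, and the count called ranged from 24 to 25 in sham and from 26 to 27 in VATR. In liver 177 of 180 such values stayed the same, with 3 newly called. Positive differences in SAT numbered 9 of 22, 15 of the 31 tested with no filter and 14 of 22 without sham SAT replicate 1.

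Equal library numbers are not stated to mark 1 mouse or batch. Deviations of equal numbers from their group means correlated at 0.20, 0.24, -0.09, 0.30 and 0.24 in liver and -0.09, 0.17, -0.42, -0.02 and 0.19 in SAT between sham and VATR, which are different mice. Between liver and SAT, where 1 mouse could have given both, they correlated at 0.04, -0.08, -0.07, -0.20 and -0.03 in sham. In VATR these correlations were 0.16, 0.04, 0.01, 0.07 and 0.06. The numbers were not taken as pairs, but such low correlations cannot exclude that 1 mouse gave both tissues. The summed level of the 6 interferon-induced genes was highest in sham library 5 in both tissues. It was 1079 CPM in that liver library and 236 CPM in that SAT library, against 39.2 to 78.4 CPM in the other SAT libraries. Whether those 2 libraries came from 1 mouse was not tested. With library number as a replicate block, 0 members and 0 of all genes were called in liver, SAT and the difference in response. Between sham tissues 24 of 32 members were called, against 13145 of all 19954 genes, and between VATR tissues 27, against 12838. In liver 8 of 32 members were at an unadjusted edgeR p under 0.05, against 1760 of all 17078 genes. Members with under 10 counts in a SAT group, such as Fga and Saa1, are limited by depth there.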
